A study of Mus musculus with 6 samples.

Results

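Autophagy is the route by which a cell wraps its own cytoplasm, protein aggregates or worn organelles in a double membrane, the autophagosome, and hands them to the lysosome for digestion. A kinase complex around Ulk1 starts the process, a lipid kinase complex marks the site, the Atg conjugation enzymes attach proteins of the Atg8 family to the growing membrane, and cargo receptors tie the load to Atg8. In skeletal muscle the pathway frees amino acids during fasting and clears damaged mitochondria (mitophagy). Here 42 genes of autophagy, mitophagy and the lysosome were followed by RNA-seq in gastrocnemius (GAS) muscle. They were chosen by name out of 24532 genes in the table. All 42 passed the filter on low counts that left 13801 genes for testing, and their lowest count in any library was 114, for *Atg4a*.

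The data are 3 libraries labelled WT (*Sirt6* flox/flox, without Cre) and 3 labelled *Sirt6* KO (*Myl1-Cre*; *Sirt6* flox/flox), so both groups carry the floxed alleles. The labels give the strain as C57BL/6 and the age as 20 weeks, and the methods give male mice. The reporting summary describes replicates in general as biological, and the labels do not tie a library to an animal, so p-values measure the spread between these libraries. *Myl1-Cre* is active mainly in fast (type II) fibers, so other cells of the muscle may keep *Sirt6*, which counts from whole muscle do not show. *Sirt6* itself, a histone deacetylase, was at 2.77, 2.23 and 2.88 normalized CPM in WT libraries 1, 2 and 3 and at 7.81, 7.44 and 6.68 in KO libraries 1, 2 and 3, against the labels. Counts per gene do not separate the deleted from the remaining exons. Normalized CPM is the read count scaled to library size with TMM factors. The second group is called KO-labelled for this reason, and every direction below rests on the labels. Differences are log2 fold changes, KO-labelled minus WT, given ± standard error, with the adjusted p of edgeR's quasi-likelihood test. That of *Sirt6* was 1.48 ± 0.17, adjusted p = 0.0113. *Myl1*, whose promoter drives Cre, was at -0.050 ± 0.28, and *Creb1* fell (-0.96 ± 0.15, adjusted p = 0.0144).

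The libraries held 44845763 to 63016899 counts on genes, and 1 count was worth 0.0165 to 0.0212 CPM. The 6 myofiber genes (*Acta1*, *Ckm*, *Myh4*, *Mb*, *Des* and *Actn3*) summed to 104180 to 170180 CPM in WT and 164920 to 187520 in the KO-labelled group. A large part was the fast-fiber gene *Myh4*, at 53097, 54839 and 95958 CPM in WT and 89370, 80840 and 101490 in the KO-labelled group. *Mb*, at 4071, 4861 and 850 against 619, 2579 and 861 CPM, had the opposite sign, which the sum does not show. The 9 slow-fiber genes split the libraries across the labels, with summed levels of 3725, 3116 and 145 CPM in WT libraries 1, 2 and 3 and 376, 2199.7 and 521 in KO libraries 1, 2 and 3. Macrophages, which are rich in lysosomes, gave 43.0 to 108 and 51.6 to 59.8 CPM in the respective groups over 9 genes. Their marker *Lyz2* was at 27.6, 0.318 and 0 CPM in WT libraries 1, 2 and 3. In KO libraries 1, 2 and 3 it was at 12.5, 0.0825 and 0.127 CPM. The other summed ranges, WT first, were 551 to 1013 and 676 to 753 CPM for fibroblast genes, 146 to 275 and 164 to 171 CPM for endothelial genes and 46.6 to 297 and 80.2 to 181 CPM for erythroid genes. They were 121 to 223 and 151 to 211 CPM for adipocyte genes and 11.6 to 30.8 and 9.64 to 19.4 CPM for Schwann cell genes. The part of these cells in the results was not tested, and in bulk muscle fewer cells of a type and less RNA per cell cannot be told apart.

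Of the 42 genes, 7 fell and 1 rose in the KO-labelled libraries at an adjusted p under 0.05. The genes that fell were the initiation scaffold *Rb1cc1*, the lipid kinase partner *Uvrag*, the conjugation protein *Atg5*, the cargo receptors *Optn* and *Fam134b*, the mitophagy receptor *Bnip3* and the lysosomal membrane protein *Lamp2*. The gene that rose was the lipid transfer protein *Atg2a*. These 8 genes are 19.0% of the list beside 16.2% of all genes tested, so their total number is near the background. Over all genes 8.39% passed as lower and 7.85% as higher, a more even split than 7 and 1. The split of these few genes was not tested and moved with the method, as given below. The groups did not overlap in 19 of the 42 genes (45.2%, against 40.0% of all genes). Of these 10 were lower and 9 higher, against 19.6% and 20.3% of all genes. The median log2 fold change of the 42 was -0.0039, beside -0.021 over all genes, and 21 of the 42 lay on each side of 0.

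**Figure D1:**
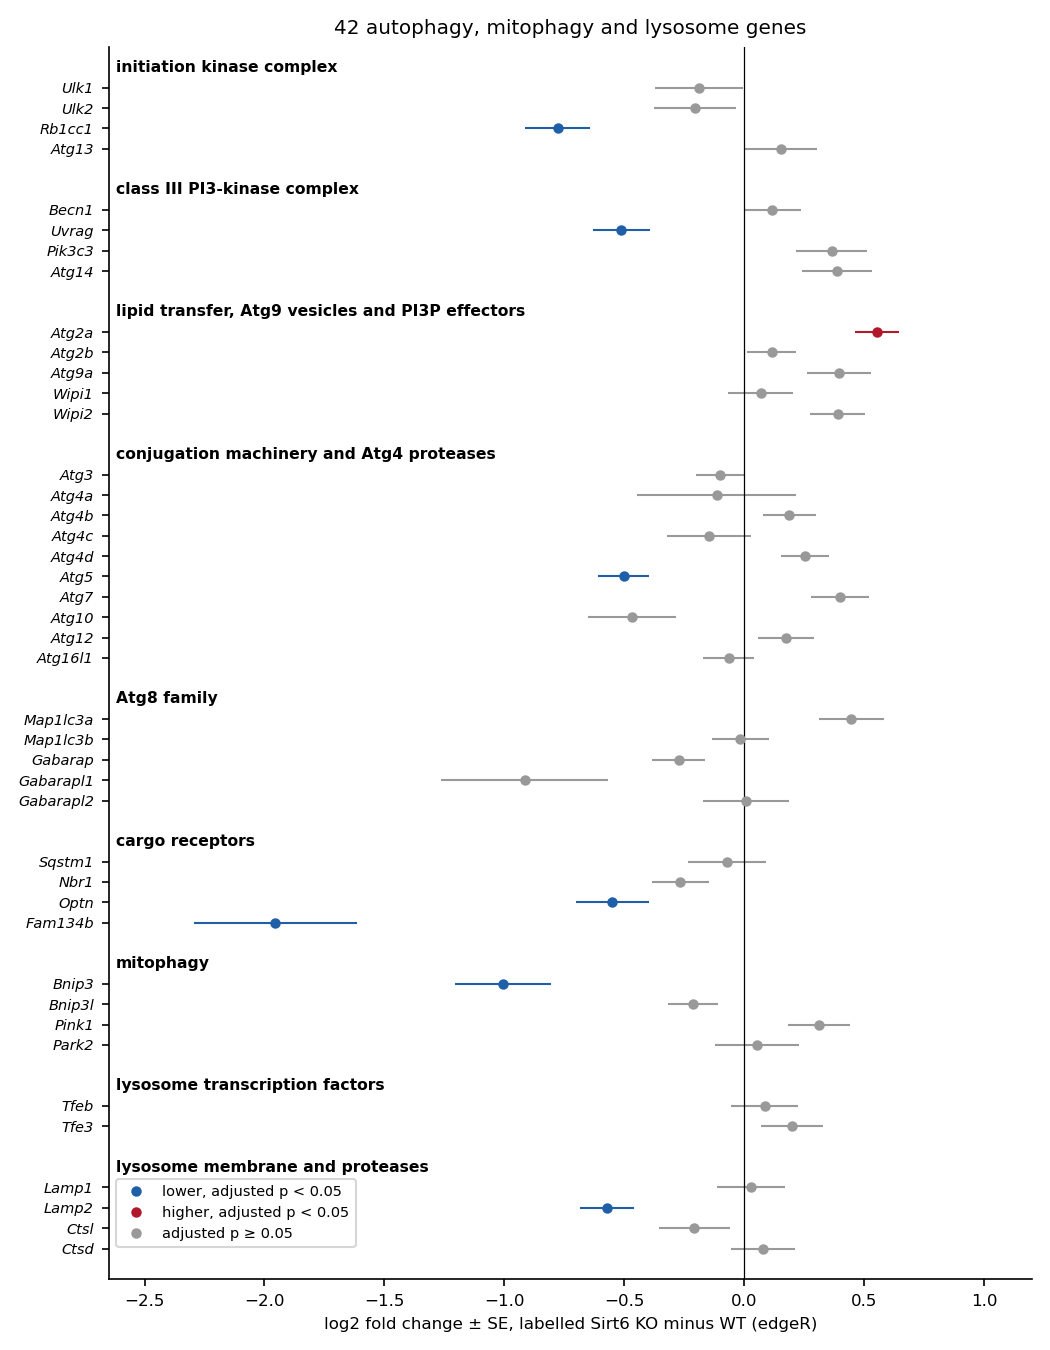
The log2 fold change of each of the 42 genes, KO-labelled minus WT, is on the horizontal axis with its standard error as a bar, and genes are grouped by role on the vertical axis. Colour marks the 7 genes that fell and the 1 that rose at an adjusted p under 0.05, and Fam134b lies farthest from 0 at -1.95.

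The number of calls moved with the library left out, in the 42 genes and in all genes alike. Without WT library 2, KO library 1 or KO library 3, edgeR called 0 of the 42 genes, and 1.78%, 0.0568% and 0.0921% of all genes. At an unadjusted p under 0.05 these fits had 11, 12 and 11 of the 42. Over all genes tested they had 3642 of 14019, 3619 of 14084 and 3423 of 14115. Without WT library 1 it called 2 lower and 1 higher (3.15% of all genes), 4 lower and 1 higher without KO library 2 (6.21% of all genes), and 7 lower and 7 higher without WT library 3 (32.5% of all genes). The log2 fold changes of the 8 genes kept their sign in all 6 fits, for example at -0.87 to -0.70 for *Rb1cc1* and 0.53 to 0.59 for *Atg2a*. Of the 6 fits, *Rb1cc1*, *Atg2a* and *Fam134b* passed in 3, *Bnip3* in 2, and *Uvrag*, *Atg5*, *Optn* and *Lamp2* in 1. The split also moved with the method, to 8 lower and 6 higher with DESeq2 (19.8% of all genes called), 6 and 5 with limma on FPKM (24.3% with pseudocount 1 and 22.4% with 0.1), and 6 and 3 with upper-quartile scaling (17.0%).

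Log2 fold changes were higher for transcripts richer in GC, with a Spearman's rho of 0.339 across 13271 genes and 0.552 across the 42. Genes measured in the same libraries are not independent, so both are descriptions. The median GC content was 50.2% in the 42 genes and 44.9% in the 8 that passed. With the trend over GC content removed, 2 genes were called, *Fam134b* and *Uvrag*, both lower, beside 7.06% of all genes.

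**Figure D2:**
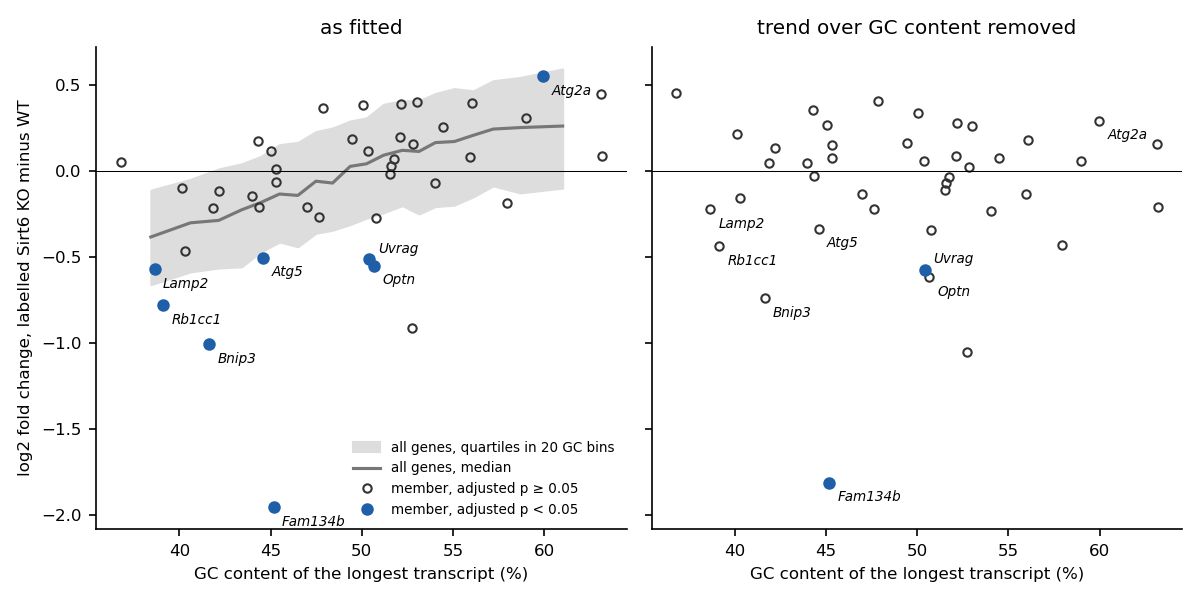
Log2 fold change of the 42 genes (vertical axis) against the GC content in percent of the longest transcript (horizontal axis), as fitted and with the trend removed, beside the median and quartiles of all genes. The median of all genes ran from -0.38 at the lowest to 0.26 at the highest GC content, and 8 genes passed as fitted and 2 with the trend removed.

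Promoters are shown for *Fam134b*, *Atg5* and *Bnip3*, the genes that fell whose windows hold a motif of a known regulator of autophagy genes. The motifs were picked after the values were seen. They were CACGTG, the core of the element bound by Tfeb and Tfe3, its longer form TCACGTGA, the CREB element TGACGTCA, and GTAAACA, a FoxO core. Both strands of RefSeq windows (GRCm38.p6), 250 bases before to 50 after a start site, were searched. Capitals mark the motifs, and each window is written 5′ to 3′ on the strand of its gene.
Fam134b, chr15:25843048-25843347, plus strand: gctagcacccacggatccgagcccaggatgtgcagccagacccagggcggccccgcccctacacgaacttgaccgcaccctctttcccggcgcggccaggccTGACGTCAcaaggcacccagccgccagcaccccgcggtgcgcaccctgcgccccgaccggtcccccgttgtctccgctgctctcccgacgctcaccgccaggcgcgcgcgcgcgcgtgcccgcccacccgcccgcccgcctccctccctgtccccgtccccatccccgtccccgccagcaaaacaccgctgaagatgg
Atg5, chr10:44268089-44268388, plus strand: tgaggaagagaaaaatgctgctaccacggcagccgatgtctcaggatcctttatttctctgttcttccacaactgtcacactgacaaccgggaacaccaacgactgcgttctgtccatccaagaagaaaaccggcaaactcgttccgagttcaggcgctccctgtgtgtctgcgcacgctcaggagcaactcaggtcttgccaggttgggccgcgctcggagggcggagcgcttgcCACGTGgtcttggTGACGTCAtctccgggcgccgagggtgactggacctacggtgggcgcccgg
Bnip3, chr7:138909457-138909756, minus strand: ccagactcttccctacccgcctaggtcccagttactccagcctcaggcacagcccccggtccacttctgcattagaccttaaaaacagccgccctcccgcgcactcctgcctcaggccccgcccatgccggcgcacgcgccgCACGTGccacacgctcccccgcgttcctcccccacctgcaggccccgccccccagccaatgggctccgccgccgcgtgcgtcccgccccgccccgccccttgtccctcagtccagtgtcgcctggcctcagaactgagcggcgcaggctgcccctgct
In *Fam134b* TGACGTCA began 148 bases before the start site, and CACGTG lay in another window of this gene (chr15:25942429-25942728), 188 bases before that start. In *Atg5* CACGTG began 14 bases before the start and TGACGTCA 1 base before it. In *Bnip3* CACGTG began 108 bases before it.

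Of the 42 genes, 34 had at least 1 window, 43 windows in all. CACGTG was in 9 of them (20.9%), against 7.15% of all 32851 windows. They were of *Atg3*, *Atg5*, *Atg7*, *Atg14*, *Bnip3*, *Ctsd*, *Ctsl*, *Fam134b* and *Lamp1*, of which 3 fell and 6 did not pass the test. TCACGTGA, which contains CACGTG, was in 2 (*Atg3* and *Ctsd*), against 0.974% of all. TGACGTCA was in 2 (*Atg5* and *Fam134b*), against 1.79%, and GTAAACA in 0, against 3.65%. The windows of *Optn*, *Uvrag*, *Lamp2* and *Atg2a* held none of these letters. *Rb1cc1* had no window to search, while *Fam134b* had several. A match describes the letters and not a bound site.

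The initiation complex joins the kinases Ulk1 and Ulk2 with the scaffolds Rb1cc1 (FIP200) and Atg13. *Rb1cc1* (NCBI gene 12421, chromosome 1 from 6214634 to 6276375 on GRCm38) was at 131, 161 and 169 CPM in WT libraries 1, 2 and 3 and at 82.9, 97.7 and 88.4 in KO libraries 1, 2 and 3. Every WT value was above the others, and the gene fell (-0.78 ± 0.14, adjusted p = 0.0167). Its transcript has 39.1% GC, and with the GC trend removed the difference was -0.44 (adjusted p = 0.0861). The kinases did not pass. *Ulk1* was at 136, 184 and 188 CPM in WT and 128, 181 and 138 in the KO-labelled group (adjusted p = 0.500), and *Ulk2* at 182, 174 and 252 against 193, 157 and 176 (adjusted p = 0.420), with overlap in both. *Atg13* was at 0.15 ± 0.15, adjusted p = 0.493.

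The class III PI3-kinase Pik3c3 (Vps34) works in alternative complexes with Becn1, of which Atg14 directs it to autophagosome formation and Uvrag to endosome and lysosome traffic. *Uvrag* (NCBI gene 78610, chromosome 7 from 98886742 to 99141167) was at 11.7, 13.7 and 12.8 CPM in WT and 8.63, 9.29 and 8.84 in the KO-labelled group. The groups lay apart and the gene fell (-0.51 ± 0.12, adjusted p = 0.0317). With the GC trend removed it was at -0.57 (adjusted p = 0.0391). It passed in all 10 alternatives that kept every library and, of the 6 that left one out, in that without WT library 3. *Atg14*, the alternative partner, had the opposite sign, at 9.90, 11.5 and 13.6 against 14.6, 14.6 and 16.5 CPM without overlap, and did not pass (0.39 ± 0.15, adjusted p = 0.107). Neither did *Pik3c3* (0.36 ± 0.15, adjusted p = 0.125) nor *Becn1* (0.12 ± 0.12, adjusted p = 0.508).

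Atg2 proteins carry lipids into the growing membrane, Atg9 vesicles seed it, and Wipi proteins bind the lipid that Pik3c3 makes. All 5 genes of this step had a log2 fold change above 0, although *Wipi1* turned to -0.034 with the GC trend removed and to -0.056 without KO library 2, and 1 passed. *Atg2a* (NCBI gene 329015, chromosome 19 from 6241478 to 6262304) was at 27.1, 25.3 and 26.0 CPM in WT and 38.2, 39.3 and 37.6 in the KO-labelled group, with little spread inside either. It rose (0.55 ± 0.091, adjusted p = 0.0156), and was at 0.29 (adjusted p = 0.0854) with the GC trend removed. Its paralogue *Atg2b* lay at 39.1, 37.8 and 41.8 against 40.3, 41.4 and 46.7 CPM, with overlap (0.11 ± 0.10, adjusted p = 0.461). *Atg9a* (0.40 ± 0.13, adjusted p = 0.0813) did not overlap between the groups but missed the threshold. *Wipi2*, at 31.7, 35.6 and 40.0 against 47.6, 44.4 and 48.6 CPM, did likewise (0.39 ± 0.12, adjusted p = 0.0590). Of 10 alternatives that kept every library, *Atg9a* passed in 4 and *Wipi2* in 5. With the GC trend removed *Atg9a* was at 0.18 (adjusted p = 0.397) and *Wipi2* at 0.28 (adjusted p = 0.170). *Wipi1* overlapped, at 42.7, 46.3 and 40.1 against 39.8, 53.3 and 42.3 CPM (adjusted p = 0.750).

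**Figure D3:**
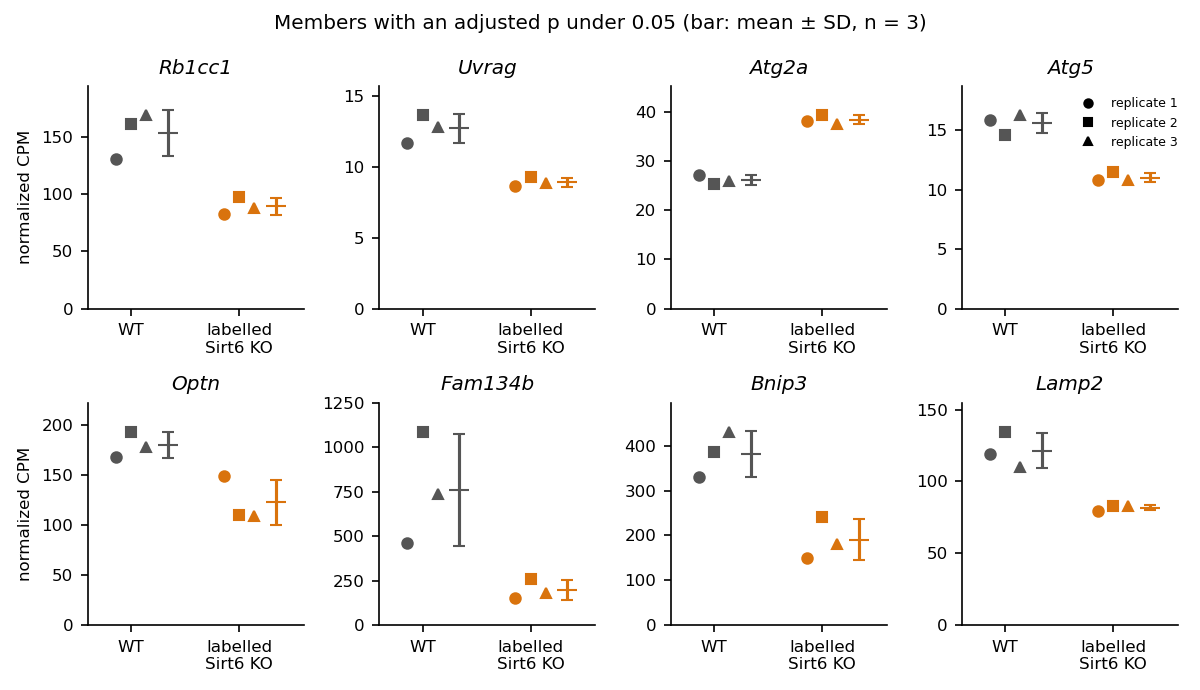
Normalized CPM (vertical axis, from 0) of the 8 genes with an adjusted p under 0.05 in each WT library and each KO-labelled library, with the marker shape giving the replicate number and a bar for the mean and SD over 3 libraries. The groups overlap in none of the 8, Atg2a is the 1 gene that is higher in the KO-labelled libraries, and the WT values of Fam134b spread from 459.8 to 1087.

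Conjugation uses the E1-like Atg7, the E2-like Atg3 and Atg10, and the Atg5-Atg12-Atg16l1 complex that acts like an E3, while Atg4 proteases trim Atg8. *Atg5* (NCBI gene 11793, chromosome 10 from 44268322 to 44364299) was at 15.9, 14.6 and 16.3 CPM in WT and 10.8, 11.5 and 10.8 in the KO-labelled group. It fell without overlap (-0.50 ± 0.11, adjusted p = 0.0253), was at -0.34 (adjusted p = 0.0873) with the GC trend removed, and of the fits that left out a library it passed in that without WT library 3. Its partners *Atg12* (0.18 ± 0.12, adjusted p = 0.320) and *Atg16l1* (-0.064 ± 0.11, adjusted p = 0.701) did not pass. *Atg7* lay at 7.96, 7.74 and 7.89 against 11.2, 10.1 and 9.84 CPM, without overlap (0.40 ± 0.12, adjusted p = 0.0628). It passed in 4 of 10 alternatives that kept every library, and was at 0.26 (adjusted p = 0.195) with the GC trend removed. *Atg10* lay at 9.40, 12.3 and 9.04 against 7.60, 8.48 and 6.12 CPM, also without overlap but with the opposite sign (-0.47 ± 0.18, adjusted p = 0.119). *Atg3* was at -0.10 ± 0.10, adjusted p = 0.494.

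None of the 4 proteases passed. *Atg4d* was at 40.5, 35.7 and 39.8 against 44.2, 48.3 and 45.6 CPM, without overlap (0.25 ± 0.10, adjusted p = 0.118). *Atg4b*, at 20.5, 22.7 and 24.6 against 24.2, 26.5 and 26.5 CPM, overlapped (adjusted p = 0.258). *Atg4a*, at 4.59, 2.42 and 6.32 against 4.34, 4.41 and 3.58 CPM, had the lowest level of the family and a wide spread in WT (adjusted p = 0.830). *Atg4c* was at 8.18, 6.75 and 9.18 against 8.08, 6.17 and 7.55 CPM (adjusted p = 0.587).

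The Atg8 proteins are what conjugation puts on the membrane and what cargo receptors bind. None of the 5 genes passed. *Map1lc3a* was at 119.7, 142 and 159 CPM in WT and 185, 204 and 185 in the KO-labelled group, without overlap (0.45 ± 0.14, adjusted p = 0.0630). It passed in 5 of 10 alternatives that kept every library. Its transcript has 63.1% GC, and with the GC trend removed the difference was 0.15 (adjusted p = 0.485). *Gabarap* was at 117, 123 and 134 against 111, 101 and 97.4 CPM, also without overlap and with the opposite sign (-0.27 ± 0.11, adjusted p = 0.123). *Map1lc3b*, the LC3 most used as an autophagosome marker, lay at 187, 209 and 229 against 213, 207 and 198 CPM (-0.017 ± 0.12, adjusted p = 0.932), and its sign turned under 3 alternatives that kept every library. *Gabarapl2*, at 57.1, 48.7 and 74.4 against 68.4, 60.9 and 52.0 CPM, overlapped widely (adjusted p = 0.976).

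*Gabarapl1* had the largest fold change of the family. It was at 135, 192 and 109 CPM in WT and 51.5, 119.6 and 59.9 in the KO-labelled group, where KO library 2, with high slow-fiber genes, lay above WT library 3, with the lowest. The difference was -0.92 ± 0.35, adjusted p = 0.109. The call depended on the fit. With the slow-fiber level as a covariate the difference was -0.85 (adjusted p = 0.0351, with 28.9% of all genes called). With DESeq2 it was -0.92 (adjusted p = 0.0276, 19.8% called), and without KO library 2 -1.37 (adjusted p = 0.0405, 6.21% called).

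Per length, the 5 genes summed to 1116 ± 69.3 TPM in WT and 1013 ± 77.4 TPM in the KO-labelled group (mean ± SD, n = 3 each, as deposited, without TMM scaling). These shares were not corrected for the GC trend. *Map1lc3a* took 24.8%, 25.9% and 28.1% of the sum in WT and 35.4%, 36.5% and 38.0% in the KO-labelled group. The difference was 10.4 percentage points without overlap (exact permutation p = 0.1, two-sided, the minimum for 3 against 3). *Gabarap* took 22.6%, 20.8% and 22.0% against 19.8%, 16.8% and 18.6%, a difference of -3.38 points (exact permutation p = 0.1). *Gabarapl1* took 16.4%, 20.6% and 11.3% against 5.81%, 12.6% and 7.24%, with overlap (exact permutation p = 0.2). The mean shares of *Map1lc3b* (23.8 ± 0.726% and 24.1 ± 1.33%) and *Gabarapl2* (12.0 ± 2.33% and 12.3 ± 1.44%) differed by less than their SDs.

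**Figure D4:**
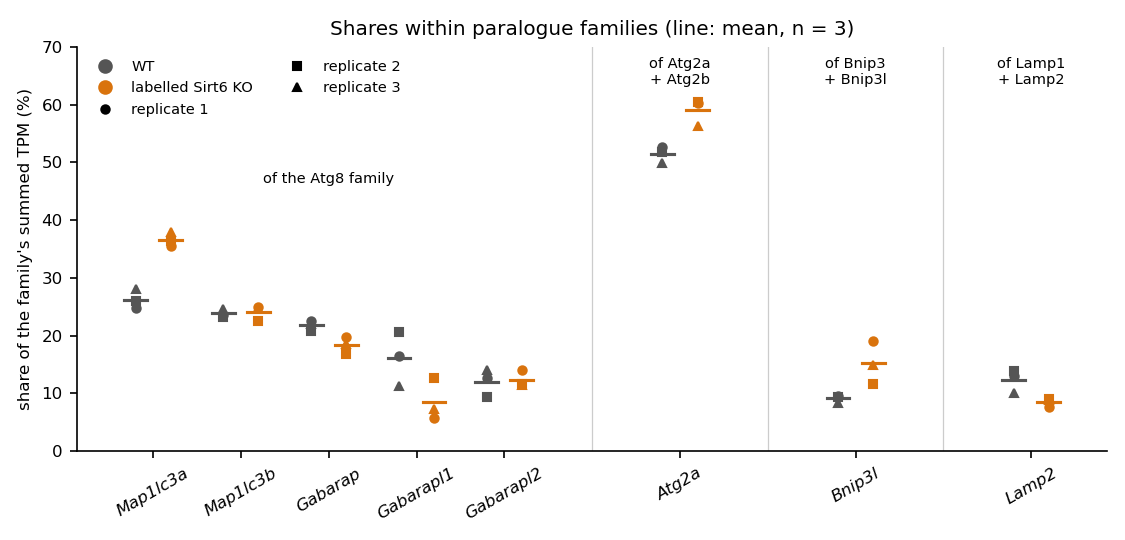
The share in percent of a family's summed TPM (vertical axis) taken by each named gene in each WT library and each KO-labelled library, with a line at the mean of 3 libraries and marker shapes for the replicate number. Every KO-labelled share of Map1lc3a is above every WT share, with means of 26.3% in WT and 36.6% in the KO-labelled libraries, and the groups of Gabarapl1 overlap.

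Sqstm1 (p62), Nbr1 and Optn bind ubiquitin-marked cargo, and Fam134b (now Retreg1) is a receptor in the endoplasmic reticulum for the turnover of that membrane (ER-phagy). *Fam134b* (NCBI gene 66270, chromosome 15 from 25843298 to 25973696) was at 459.8, 1087 and 736 CPM in WT and 151, 256 and 182 in the KO-labelled group. WT values spread widely, yet the lowest was above the highest of the other group. It fell (-1.95 ± 0.34, adjusted p = 0.0166), a 3.87-fold difference, and was at -1.81 (adjusted p = 0.0335) with the GC trend removed. The study chose this gene for its heat map on these libraries, so its direction is not independent evidence. It passed in all 10 alternatives that kept every library. Without 1 library the difference lay between -2.21 and -1.61 and passed in 3 of 6 fits, not without WT library 2, KO library 1 or KO library 3.

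*Optn* (NCBI gene 71648, chromosome 2 from 5020521 to 5064399) was at 168, 193 and 178 CPM in WT and 149, 110.3 and 109 in the KO-labelled group, of which KO library 1 was nearest to WT. It fell (-0.55 ± 0.15, adjusted p = 0.0489), at the edge of the threshold, and missed it in 7 of 10 alternatives that kept every library, with adjusted p of 0.0530 to 0.0725. *Sqstm1* was at 638, 736 and 912 against 693, 739.7 and 744 CPM, with the KO-labelled values inside the WT range (adjusted p = 0.784). *Nbr1* was at 132, 163 and 155 against 125, 130.0 and 119 CPM, without overlap (-0.27 ± 0.12, adjusted p = 0.154).

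Mitophagy runs through receptors in the outer mitochondrial membrane, among them Bnip3 and Bnip3l (Nix), and through the kinase Pink1 with the ubiquitin ligase Park2 (Parkin). *Bnip3* (NCBI gene 12176, chromosome 7 from 138890836 to 138909506) was at 329.7, 386 and 432 CPM in WT and 149, 241 and 182 in the KO-labelled group. All KO-labelled values were below the lowest WT value. It fell (-1.005 ± 0.20, adjusted p = 0.0218), a 2.01-fold difference, was at -0.74 (adjusted p = 0.0638) with the GC trend removed, and lay between -1.20 and -0.85 without 1 library. *Bnip3l* was at 64.5, 73.7 and 73.0 against 64.6, 58.6 and 58.9 CPM, where the lowest WT value lay just under the highest of the others (-0.21 ± 0.10, adjusted p = 0.186).

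Per length, *Bnip3* and *Bnip3l* summed to 522 ± 24.5 TPM in WT and 257 ± 46.6 in the KO-labelled group (SD, n = 3 each). *Bnip3l* took 9.59%, 9.38% and 8.39% of the sum in WT and 19.0%, 11.7% and 14.9% in the others, a difference of 6.08 percentage points (exact permutation p = 0.1). *Pink1* had the opposite sign of *Bnip3*, at 648, 671 and 677 against 905, 813 and 759 CPM without overlap, and did not pass (0.31 ± 0.13, adjusted p = 0.134). Its transcript has 59.0% GC, and with the GC trend removed the difference was 0.061 (adjusted p = 0.788). *Park2* was low, at 7.06, 8.02 and 10.3 against 9.69, 8.15 and 8.46 CPM (adjusted p = 0.853).

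Tfeb and Tfe3 are transcription factors of lysosome and autophagy genes. *Tfeb* was at 50.4, 55.9 and 70.7 CPM in WT and 64.3, 59.4 and 64.1 in the KO-labelled group, inside the WT range (adjusted p = 0.698). *Tfe3* was at 8.22, 7.62 and 8.52 against 8.56, 9.37 and 10.1 CPM, without overlap (0.20 ± 0.13, adjusted p = 0.303). *Tfeb* took 90.9 ± 1.25% and 90.4 ± 0.813% of their summed TPM in WT and the KO-labelled group (SD, n = 3 each).

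Lamp1 and Lamp2 line the lysosome, and Lamp2 is needed for its fusion with autophagosomes. *Lamp2* (NCBI gene 16784, chromosome X from 38399647 to 38456460) was at 119, 135 and 110.4 CPM in WT and 79.6, 82.7 and 83.1 in the KO-labelled group, which lay close together. It fell (-0.57 ± 0.11, adjusted p = 0.0210). Its transcript has 38.7% GC, and with the GC trend removed the difference was -0.22 (adjusted p = 0.255). *Lamp1* was at 545, 577 and 684 against 666, 582 and 592 CPM, with overlap (0.028 ± 0.14, adjusted p = 0.908). *Lamp2* took 13.1%, 13.8% and 10.1% of the TPM of the pair in WT and 7.65%, 8.96% and 8.84% in the others, a difference of -3.85 points (exact permutation p = 0.1). The proteases *Ctsd* (762 ± 25.5 CPM in WT and 805 ± 79.0 in the KO-labelled group, SD, n = 3 each) and *Ctsl* (79.4 ± 13.6 CPM in WT and 68.7 ± 5.95 in the KO-labelled group) had adjusted p of 0.708 and 0.347.

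In the remaining families, *Ulk1* took 48.5 ± 4.97% and 48.5 ± 7.10% of the TPM of *Ulk1* and *Ulk2* in WT and the KO-labelled group (SD, n = 3 each). *Atg2a* took 51.5 ± 1.39% and 59.0 ± 2.31% of that of *Atg2a* and *Atg2b*, without overlap (exact permutation p = 0.1). *Atg4d* made up 51.1 ± 2.78% and 53.9 ± 0.992% of the Atg4 family (exact permutation p = 0.2) and *Wipi1* 72.1 ± 3.29% and 67.2 ± 4.28% of the Wipi pair (exact permutation p = 0.2). Of these, *Atg2a* alone was without overlap.

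By level per length, the highest means in WT were those of *Ctsd* (855 ± 86.5 TPM), *Sqstm1* (819 ± 57.1), *Pink1* (617 ± 56.4), *Lamp1* (588 ± 4.42), *Fam134b* (533 ± 222) and *Bnip3* (474 ± 22.7; SD, n = 3 each). *Fam134b* and *Bnip3* were in places 5 and 6 of the 42, and the means of *Pink1*, *Lamp1* and *Bnip3* lay within 1 SD of *Fam134b*. In the KO-labelled group they stood at 123 ± 31.4 and 219 ± 48.9 TPM, in places 10 and 7. The lowest means in WT were those of *Atg4a* (4.51 ± 1.70) and *Atg7* (4.53 ± 0.444), within their spread of each other.

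The rest of the pathway was read from 7 further lists of 137 genes, all tested, of which 19 fell and 16 rose, or 25.5% beside 16.2% of all genes. Their median log2 fold change was 0.10. With the GC trend removed 9 were called lower and 3 higher, beside 7.06% of all genes. Without KO library 1 or 3 edgeR called 0, beside the 0.0568% and 0.0921% given above. In fits without 1 library, *Trp53inp1*, *Flcn* and *Rheb* passed in 4 of 6. The other genes named below as fallen or risen passed in 1 or 2.

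**Figure D5:**
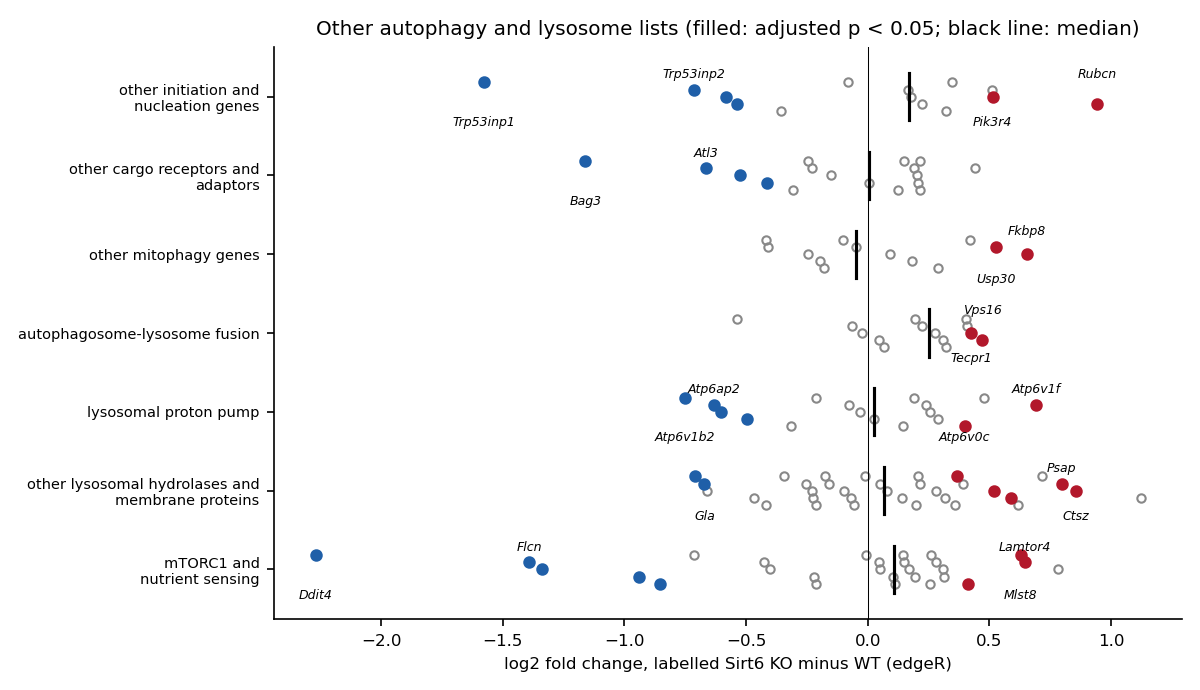
Log2 fold change of the 137 genes of 7 further lists, KO-labelled minus WT, is on the horizontal axis and the lists are on the vertical axis, with filled points for an adjusted p under 0.05 and a line at each list's median. Ddit4, at -2.27, is the lowest and Rubcn, at 0.94, the highest of the genes that passed.

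Among 14 other initiation and nucleation genes, 4 fell and 2 rose (42.9%, beside 16.2% of all genes). *Trp53inp1*, a stress-induced protein that binds Atg8, was at 48.3 ± 7.17 CPM in WT and 16.2 ± 4.57 in the KO-labelled group (SD, n = 3 each). It fell (-1.58 ± 0.22, adjusted p = 0.0132), also with the GC trend removed (adjusted p = 0.0315), and in 4 of 6 fits without 1 library. *Trp53inp2* (DOR), another Atg8-binding protein, fell (-0.72 ± 0.15, adjusted p = 0.0234). *Rubcn*, an inhibitor of autophagosome maturation that binds the Uvrag complex, was at 29.6 ± 7.47 CPM in WT and 56.9 ± 9.49 in the KO-labelled group and rose (0.94 ± 0.21, adjusted p = 0.0288). *Pik3r4* (Vps15), the regulatory partner of Pik3c3, rose as well (0.51 ± 0.11, adjusted p = 0.0240). After the GC trend was removed *Trp53inp2* passed (adjusted p = 0.0306), and *Rubcn* (0.77, adjusted p = 0.0658) and *Pik3r4* (0.41, adjusted p = 0.0621) did not.

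Of 17 other cargo receptors and adaptors 4 fell and 0 rose by edgeR, 23.5% beside 16.2% of all genes. At an unadjusted p under 0.05 were 6 of the 17, and 4875 of all 13801 genes tested. *Bag3*, a co-chaperone that sends damaged muscle proteins to autophagy, was at 344, 279 and 185 CPM in WT and 90.8, 156 and 114 in the KO-labelled group (-1.16 ± 0.27, adjusted p = 0.0330). *Atl3*, an ER-phagy receptor, fell (-0.66 ± 0.11, adjusted p = 0.0156). Once the GC trend was removed, *Bag3* passed (adjusted p = 0.0350) and *Atl3* did not (adjusted p = 0.0563). Of 13 other mitophagy genes 4 had an unadjusted p under 0.05, 0 fell and 2 rose, 15.4% called beside 16.2% of all genes. They were *Fkbp8*, a mitochondrial membrane receptor (0.65 ± 0.14, adjusted p = 0.0243), and *Usp30*, a deubiquitinase that opposes Park2 (0.53 ± 0.14, adjusted p = 0.0476), with adjusted p of 0.128 and 0.156 once the GC trend was removed. Of 14 fusion genes 8 had an unadjusted p under 0.05, 0 fell and 2 rose, 14.3% called beside 16.2% of all genes. They were *Vps16* (0.47 ± 0.10, adjusted p = 0.0252), of the complex that tethers membranes to the lysosome, and *Tecpr1* (0.43 ± 0.11, adjusted p = 0.0418), and neither passed with the GC trend removed (0.38, adjusted p = 0.0605, and 0.18, adjusted p = 0.307).

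The lysosome lists held changes both ways. Of 17 proton pump genes 4 fell and 2 rose (35.3%, beside 16.2% of all genes). *Atp6v1b2* (-0.75 ± 0.16, adjusted p = 0.0240) and *Atp6ap2* (-0.63 ± 0.17, adjusted p = 0.0462) fell, and *Atp6v1f* (0.69 ± 0.12, adjusted p = 0.0167) and *Atp6v0c* (0.40 ± 0.10, adjusted p = 0.0396) rose. Without the GC trend *Atp6v1b2* (adjusted p = 0.0339) and *Atp6v1f* (adjusted p = 0.0423) passed, and *Atp6ap2* (-0.33, adjusted p = 0.245) and *Atp6v0c* (0.29, adjusted p = 0.120) did not. Of 34 other hydrolases and membrane proteins 2 fell and 5 rose (20.6%, beside 16.2% of all genes). *Psap*, the precursor of the saposins that help degrade sphingolipids, was at 712, 698 and 849.6 CPM in WT and 1253, 1257 and 1416 in the KO-labelled group, and rose (0.80 ± 0.15, adjusted p = 0.0184). *Ctsz*, a cathepsin, rose (0.86 ± 0.15, adjusted p = 0.0163). *Gla*, alpha-galactosidase A, fell (-0.67 ± 0.18, adjusted p = 0.0444). After removal of the GC trend *Psap* and *Ctsz* passed narrowly (adjusted p = 0.0499 and 0.0484) and *Gla* did not (adjusted p = 0.0894).

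The mTORC1 kinase complex represses autophagy when nutrients are present. Of 28 genes of this complex and its nutrient sensors 5 fell and 3 rose (28.6%, beside 16.2% of all genes). *Ddit4* (Redd1), a stress-induced inhibitor of mTORC1, was at 212, 340.2 and 295 CPM in WT and 39.5, 116 and 20.3 in the KO-labelled group, and fell (-2.27 ± 0.59, adjusted p = 0.0420). Its log2 fold change ranged from -3.23 without KO library 2 to -1.86 without KO library 3, it passed in 2 of 6 fits without 1 library, and its adjusted p was 0.0486 with the GC trend removed. *Flcn*, folliculin, which controls how mTORC1 reaches Tfeb and Tfe3, was at 242, 300.2 and 219 against 76.1, 110.0 and 104 CPM. It fell without overlap (-1.39 ± 0.19, adjusted p = 0.0131), also with the GC trend removed (adjusted p = 0.0150), and in 4 of 6 fits without 1 library. *Lamtor4* (0.64 ± 0.10, adjusted p = 0.0148), of the lysosomal anchor of mTORC1, and *Mlst8* (0.63 ± 0.13, adjusted p = 0.0243), a subunit of the complex, rose, and did not pass with the GC trend removed (adjusted p = 0.0540 and 0.0773).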

How the data were processed

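RNA-seq of GAS muscle was analysed in 6 libraries, grouped by their labels. The authors deposited read counts per gene from StringTie (whole numbers, not normalized), FPKM values scaled to length and depth, and TPM values scaled to length and a fixed sum, on mm10 (GRCm38). The submitters' processing notes name HISAT2 2.1.0, Bowtie2 2.3.4.1 and StringTie 2.1.3b, while the reporting summary names STAR. The labels name a stranded kit, the methods another, and whether counting used the strand is not given in the sources used here. In RefSeq *Rb1cc1* and *Lamp2* overlap a long noncoding RNA gene and *Uvrag*, *Atg5* and *Bnip3* a pseudogene, so their counts are uncertain to that extent.

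Counts were fitted in R 4.3.3 with edgeR 4.0.16 (filterByExpr, TMM, quasi-likelihood test, Benjamini-Hochberg adjustment over all genes tested, threshold 0.05). The method was also run on counts simulated from the means and dispersions of this fit. The common biological coefficient of variation was 24.1%. Paralogue shares used the deposited TPM with two-sided exact permutation tests. GC content is that of the longest GENCODE M21 transcript, known for 96.2% of genes tested and all 42 members. Alternatives were DESeq2 1.42.0, its size factors, upper-quartile scaling, no count filter, a minimum of 10 counts in every library, limma 3.58.1 on quantile-normalized FPKM (log2 with pseudocounts 1 and 0.1), the replicate number as a block, a slow-fiber covariate, removal of the GC trend (lowess, span 0.3) and each library left out. The members and lists were chosen with earlier results of these data known. Values in every library are given for each gene called and for paralogue families, and each further list is represented by up to 2 genes of largest change in each direction among those that passed, except for items that are not reported here.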

Additional observations from a re-analysis of the deposited data

How the results depend on the processing

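Under 10 alternatives that kept every library, the 42 log2 fold changes were compared with the reported values. Of these comparisons 366 kept direction and side of the threshold, 12 lost the threshold, 25 gained it and 17 changed sign. With the GC trend removed edgeR called 480 lower and 457 higher genes in all, 2 and 0 of the 42 and 9 and 3 of the further 137. With the slow-fiber covariate it called 2018 lower and 1977 higher genes in all, 10 and 6 of the 42 and 25 and 28 of the further 137. DESeq2 called 1737 lower and 1671 higher genes in all, 8 and 6 of the 42 and 25 and 21 of the further 137. Of the 42, limma called 5 higher with either pseudocount and upper-quartile scaling 3, and without a count filter 10 of the 137 were called higher. The cause was not tested.

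With a library left out, calls ranged over 2 to 2219 lower and 6 to 2363 higher genes in all, 0 to 7 and 0 to 7 of the 42, and 0 to 24 and 0 to 38 of the 137. The most calls came without WT library 3 and the fewest without KO library 1 or 3. None of the genes that changed sign had passed the test. With the GC trend removed the log2 fold changes that turned were *Wipi1* -0.034, *Atg3* 0.21, *Atg4a* 0.14, *Atg4c* 0.046, *Atg16l1* 0.076, *Bnip3l* 0.046, *Tfeb* -0.21, *Lamp1* -0.068, *Ctsd* -0.13. Under limma with pseudocount 1 they were *Map1lc3b* 0.030, *Park2* -0.054, with 0.1 *Atg4a* 0.037, *Map1lc3b* 0.031, *Park2* -0.068, under upper-quartile scaling *Map1lc3b* 0.0046, and with the slow-fiber covariate *Gabarapl2* -0.023, *Lamp1* -0.0045. Ranges with a library left out that crossed 0 were *Wipi1* -0.056 to 0.15, *Atg4a* -0.41 to 0.23, *Map1lc3b* -0.078 to 0.059, *Gabarapl2* -0.12 to 0.20, *Sqstm1* -0.17 to 0.082, *Park2* -0.050 to 0.22, *Tfeb* -0.0054 to 0.24, *Lamp1* -0.034 to 0.13. Differences in share that crossed 0, in percentage points, were *Ulk1* -3.85 to 3.09, *Atg4a* -2.90 to 0.029, *Atg4b* -1.20 to 1.88, *Map1lc3b* -0.15 to 1.03, *Gabarapl2* -0.97 to 1.30, *Tfeb* -1.21 to 0.036.

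The replicate numbers did not clearly pair the libraries: same-numbered libraries correlated in their deviations at -0.106, 0.260 and 0.161. The value of 0.260, for WT and KO library 2, was the highest of any WT and KO pair. WT library 1 correlated best with KO library 2 (0.209) and WT library 3 with KO library 1 (0.209). With the replicate block 1018 lower and 904 higher genes in all, 7 and 1 of the 42 and 18 and 12 of the further 137 were called. Of the 42, *Optn* was then not called and *Gabarapl1* was, at -0.98 (adjusted p = 0.0301). At this depth 1 count is far below the level of every member, and the 3 libraries a group limit the precision.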

Other observations

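The ER-phagy receptors beside *Fam134b* gave mixed results. This grouping was made after the values were seen. *Rtn3* was at 58.5 ± 3.18 CPM in WT and 40.6 ± 0.995 in the KO-labelled group (SD, n = 3 each) and fell (-0.53 ± 0.094, adjusted p = 0.0173, by edgeR), and *Sec62* was at 79.5 ± 4.09 CPM in WT and 59.6 ± 4.62 in the KO-labelled group and fell (-0.42 ± 0.11, adjusted p = 0.0391), beside *Atl3* in the report. The paralogues *Fam134a* (0.21 ± 0.11, adjusted p = 0.211) and *Fam134c* (0.21 ± 0.11, adjusted p = 0.215) did not pass, nor did *Ccpg1* (-0.23 ± 0.11, adjusted p = 0.182) and *Tex264* (0.20 ± 0.12, adjusted p = 0.280). With the GC trend removed the adjusted p of *Rtn3* was 0.0457 and that of *Sec62* 0.313.

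The partners of *Flcn*, also chosen after their values were seen, fell with it. *Fnip1* was at 141 ± 23.8 CPM in WT and 73.6 ± 11.3 in the KO-labelled group (-0.94 ± 0.17, adjusted p = 0.0171) and *Fnip2* at 11.9 ± 4.89 CPM in WT and 4.69 ± 1.31 in the KO-labelled group (-1.34 ± 0.35, adjusted p = 0.0429). *Rheb*, the small GTPase that activates mTORC1, was at 91.7 ± 9.61 CPM in WT and 50.7 ± 3.21 in the KO-labelled group and fell (-0.85 ± 0.12, adjusted p = 0.0131). With the GC trend removed *Rheb* had an adjusted p of 0.0300, *Fnip1* one of 0.0739 and *Fnip2* one of 0.0575.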
